A study of Rattus norvegicus with 29 samples.

Results

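The genes described here encode the enzymes of glycolysis and of the citrate cycle, with the glucose transporters that feed them. They were chosen by name, as a list of 36 genes, and every probe set whose single gene symbol in the platform annotation is one of the 36 was taken. The annotation gave 27 of the 36 genes at least 1 such probe set, with pyruvate carboxylase, listed as Pcx, found under its current symbol Pc. The other 9 genes (Gpi, Tpi1, Eno2, Ldha, Dld, Idh3a, Idh3b, Ogdh and Fh) were not analysed here. The 27 genes had 51 of the 8799 probe sets on the array. Of the 51, 3 are array controls for hexokinase, and 43 of the other 48 were called present on at least 9 of 29 arrays and were tested. They stand for 26 of the 2407 genes tested on the array.

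The tissue was hippocampal field CA1 from male Fischer rats, and its RNA was hybridised to 29 Affymetrix arrays (the A array of the rat U34 set, with 1 colour). The arrays came from 9 young rats of 4 months, 10 mid-aged rats of 14 months and 10 aged rats of 24 months. Every group had the same training on 2 tasks, named SWM and OMT in the labels, before tissue was taken 24 h after a sequence of 7 days, so no group is untrained. The labels number the samples but do not say that each array is a separate rat, which was assumed, so p-values rest on the scatter among arrays. CA1 tissue is a mixture of cells, and in bulk RNA fewer cells of a type and less RNA per cell cannot be told apart.

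Glycolysis breaks glucose into pyruvate in the cytosol, and lactate dehydrogenase exchanges pyruvate with lactate. The pyruvate dehydrogenase complex turns pyruvate into acetyl-CoA, which the citrate cycle oxidises in the mitochondrion, and pyruvate dehydrogenase kinases switch that complex off by phosphorylation. In brain, glucose is the main fuel, with glucose transporter 1 on the vessel wall and on astrocytes and glucose transporter 3 on neurons.

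Between 35.6% and 46.5% of the 8740 probe sets that are not controls were called present on an array. The 6 arrays with the lowest mean correlation to the others were young 4, mid-aged 1 and 8 and aged 3, 4 and 8. The array columns also carry 2 styles of name. The longer style marks 4 young, 6 mid-aged and 10 aged arrays, and the shorter marks 5 young, 4 mid-aged and 0 aged arrays. No source used here says what the style stands for. Microglial markers were higher on aged than on young arrays at an adjusted p under 0.05 in 5 of 5 genes tested, with summed signals of 27561 to 36021 on aged and 20918 to 24660 on young arrays. Beta-globin, a blood marker, was higher in 2 of 2 probe sets and myelin markers in 1 of 7 genes. Of the astrocyte genes 0 of 8 passed, and of the neuron genes 0 of 10. All tested probe sets passed in 1.66%, counting either direction. At an unadjusted p under 0.05, 2 astrocyte and 3 myelin genes were higher on aged arrays and 1 neuron gene was lower (limma). In direction, 8 of 8 astrocyte and 7 of 7 myelin genes had higher means on aged than on young arrays (median log2 changes 0.224 and 0.222). Of the neuron genes 5 of 10 did (median 0.014), and of all tested probe sets 46.4%. The summed neuron signal ran from 56336 to 76709 on aged and from 65179 to 72173 on young arrays. For 2 choroid plexus genes the summed signal reached 25702 on mid-aged arrays, where the median was 1828. It ran from 1615 to 3761 on young and from 1369 to 4645 on aged arrays, and neither gene passed. The part of these cell types in the results below was not tested.

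None of the 43 probe sets changed with age at an adjusted p under 0.05 in any of the 3 comparisons (limma, Benjamini-Hochberg over all 3861 tested probe sets). Among all tested probe sets 1.66% passed for aged against young, 0.414% for mid-aged against young and 0.0518% for aged against mid-aged. At an unadjusted p under 0.05, 4 of the 43 (9.3%) differed between aged and young, against 14.2% of all tested probe sets, and all 4 were higher on aged arrays, a direction that 6.89% of all showed, while 7.30% of all were lower. Leaving out aged 1 alone or aged 10 alone brought the 4 to 0. The 4 were both probe sets of the kinase gene Pdk2, the probe set of Pdk1, and 1 of 2 for the glucose transporter Slc2a1. Between mid-aged and young 2 of 43 (4.65%) differed at that level, against 11.2% of all (5.26% higher and 5.91% lower), and both (Eno1 and Suclg1) were lower on mid-aged arrays. Between aged and mid-aged there was 1 of 43, Pkm, which was higher on aged arrays, against 5.18% of all (2.95% higher and 2.23% lower).

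The differences were small in both directions. For aged against young the 43 changes ran from -0.25 to 0.35 on the log2 scale, 20 above and 23 below zero, with a median of -0.0061, against -0.0156 for all tested probe sets. Their median absolute size was 0.0594, and that of all tested probe sets was 0.115. The members' arrays also scattered less within an age, with a median residual SD of 0.2265 against 0.2727. The 95% confidence interval lay within 1.5-fold in either direction for 41 of the 43 probe sets (95.3%), against 84.6% of all tested. Over the 26 brightest probe sets, 1 for each gene, all 26 intervals for aged against young lay within 1.5-fold, and the widest bounds were 0.718-fold and 1.43-fold.

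**Figure D1:**
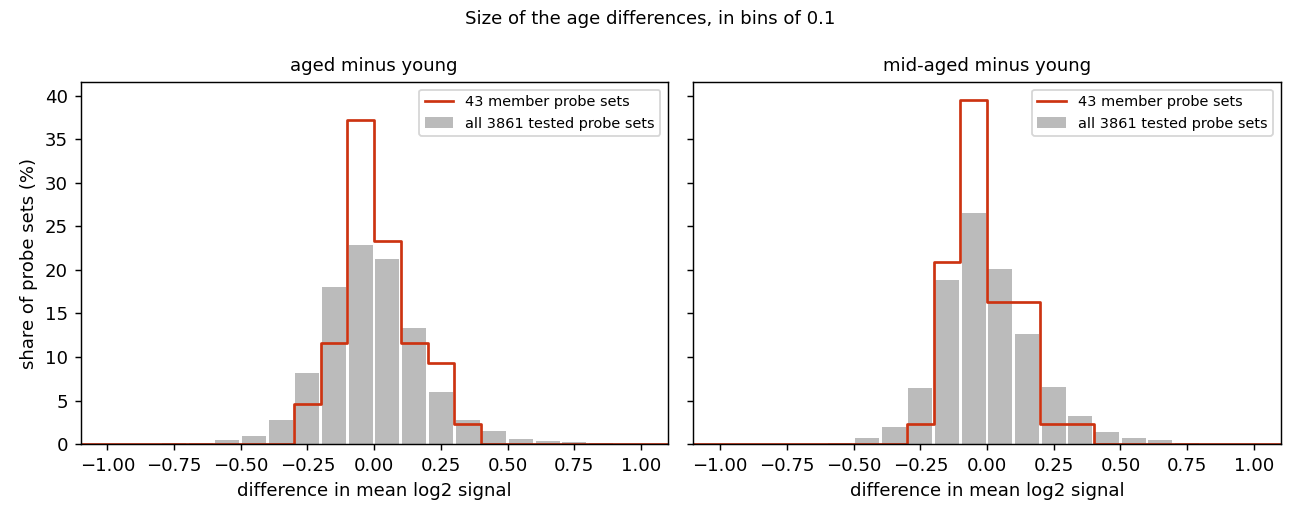
Share of probe sets (%) against the difference in mean log2 signal, in bins of 0.1, for aged minus young (left) and mid-aged minus young (right). Grey bars are all 3861 tested probe sets and the red outline is the 43 member probe sets, whose median absolute difference between aged and young arrays was 0.0594 against 0.115 for all.

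**Figure D2:**
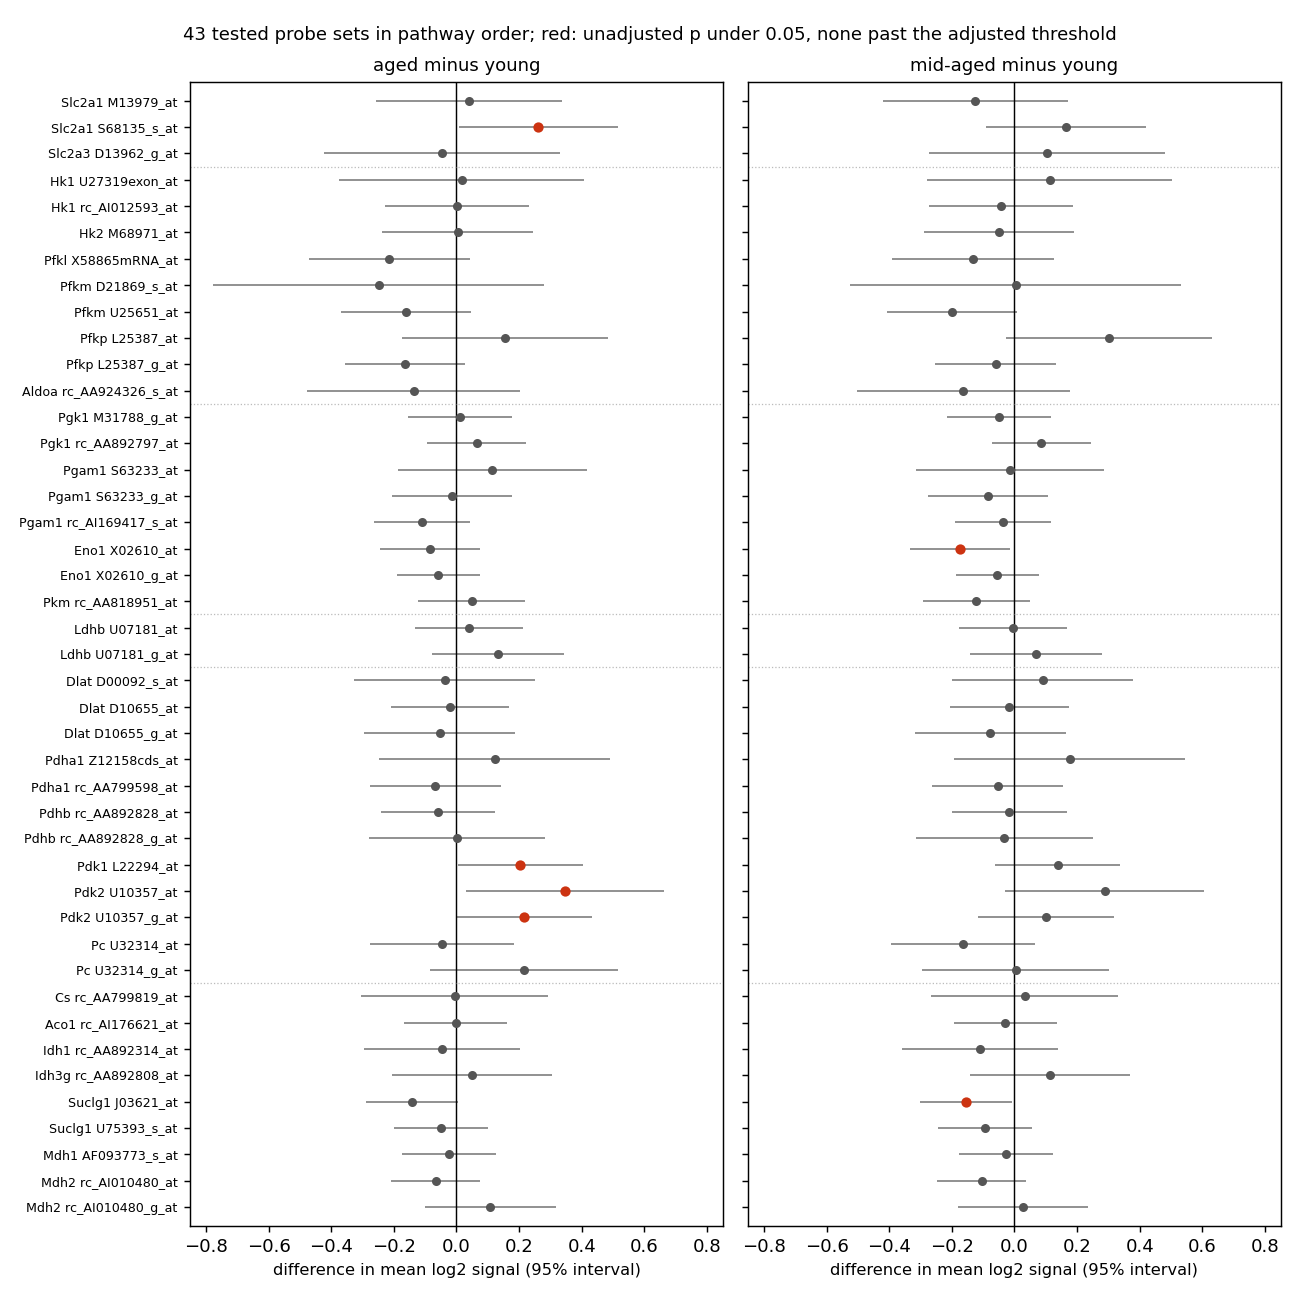
Difference in mean log2 signal with its 95% interval for each of the 43 tested probe sets, from glucose uptake at the top to the citrate cycle at the bottom, with dotted lines between stages. Red points are the 4 probe sets (left, aged minus young) and 2 probe sets (right, mid-aged minus young) with an unadjusted p under 0.05, and no point passed the adjusted threshold.

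Glucose enters through the transporters. Slc2a1, which encodes glucose transporter 1, is read by 2 probe sets. With S68135_s_at the lowest, median and highest signals were 4822, 6519 and 8494 in young, 5000, 7570 and 9188 in mid-aged and 5889, 8021 and 10577 in aged rats. The aged arrays lay toward the upper end of the young ones, but the groups overlapped over most of their range. Its aged mean was 12.92 ± 0.25 (SD, n = 10) against 12.66 ± 0.28 (SD, n = 9) in young rats on the log2 scale, a log2 change of 0.26 with a 95% interval from 0.0071 to 0.52 (limma, unadjusted p = 0.0443, adjusted p = 0.332). The other probe set, M13979_at, had medians of 1628 in young, 1442 in mid-aged and 1659 in aged rats, a log2 change of 0.04 for aged against young (limma, adjusted p = 0.923).

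The Slc2a1 signal of S68135_s_at also differed between the name styles within an age. Young arrays averaged 12.44 (n = 4) in the longer and 12.83 (n = 5) in the shorter style on the log2 scale, and mid-aged arrays averaged 12.66 (n = 6) and 13.07 (n = 4) in that order. All 10 aged arrays are of the longer style, where they averaged 12.92. With a fit that included the name style, the change for aged against young was 0.49 and passed the threshold (limma, adjusted p = 0.0293), as did 1.42% of all tested probe sets. In a fit of the longer style alone Slc2a1 did not pass. There 0 members did (limma, lowest adjusted p 0.177, that of Pc), against 0.414% of all tested probe sets. Slc2a3, which encodes the neuronal glucose transporter 3, had medians of 1397 in young, 1421 in mid-aged and 1463 in aged rats with D13962_g_at. Its aged arrays spread from 622 to 2152 and enclosed the young range of 1098 to 1645, and the log2 change was -0.04 (limma, adjusted p = 0.932).

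Hexokinase, the first step inside the cell, traps glucose as its 6-phosphate. Hk1, the form that predominates in brain, is read by 5 probe sets on this array, of which 3 are controls placed at the 5' end, the middle and the 3' end of the transcript. The brightest of the others, rc_AI012593_at, had medians of 8754 in young, 8913 in mid-aged and 9438 in aged rats and a change of 0.0027 on the log2 scale for aged against young (95% interval from -0.23 to 0.23). Its highest array was 2.17 times its lowest. The middle control of the same gene ran from 359 to 4003 on young arrays, from 207 to 4416 on mid-aged arrays and from 64.1 to 5784 on aged arrays. Present calls for it numbered 5 in the 9 young, 6 in the 10 mid-aged and 7 in the 10 aged arrays, and the present values ran from 1756 to 5784. The lower values were not called present and are not measured levels.

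The low Hk1 control values lay mostly on the 6 arrays least like the rest. On these 6 the middle control ran from 64.1 to 794 and was present on 0, while on the other 23 it ran from 359 to 5784. The control at the 3' end ran from 554 to 1206 on the 6 arrays and from 1525 to 3327 on the other 23, so that the 2 sets did not overlap. The probe set rc_AI012593_at overlapped between them, at 5784 to 9619 on the 6 arrays and 7705 to 12575 on the rest. The other tested Hk1 probe set, U27319exon_at, was also low on the 6 arrays. It ran from 796 to 1468 on these 6, with 0 present, and from 1385 to 2914 on the other 23. Present calls for U27319exon_at numbered 14 over all arrays, and its values not called present are not measured levels. Its log2 change for aged against young was 0.02 (limma, adjusted p = 0.981). The log2 ratio of 3' to 5' hexokinase control was 1.41 ± 0.55 (SD, n = 10) in aged and 1.48 ± 0.44 (SD, n = 9) in young rats. The difference between these means did not pass 0.05 (exact permutation test, two-sided, p = 0.788, adjusted over 6 tests 0.788). The 5' control was not called present on aged 3, aged 4 and young 4, so the ratio on these 3 arrays is not a measured value. These 3 arrays were kept in the means and in the test. The same ratio of the Gapdh controls was 0.049 ± 0.364 in aged and -0.054 ± 0.254 in young rats (exact permutation test, two-sided, p = 0.495, adjusted over 6 tests 0.743).

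**Figure D3:**
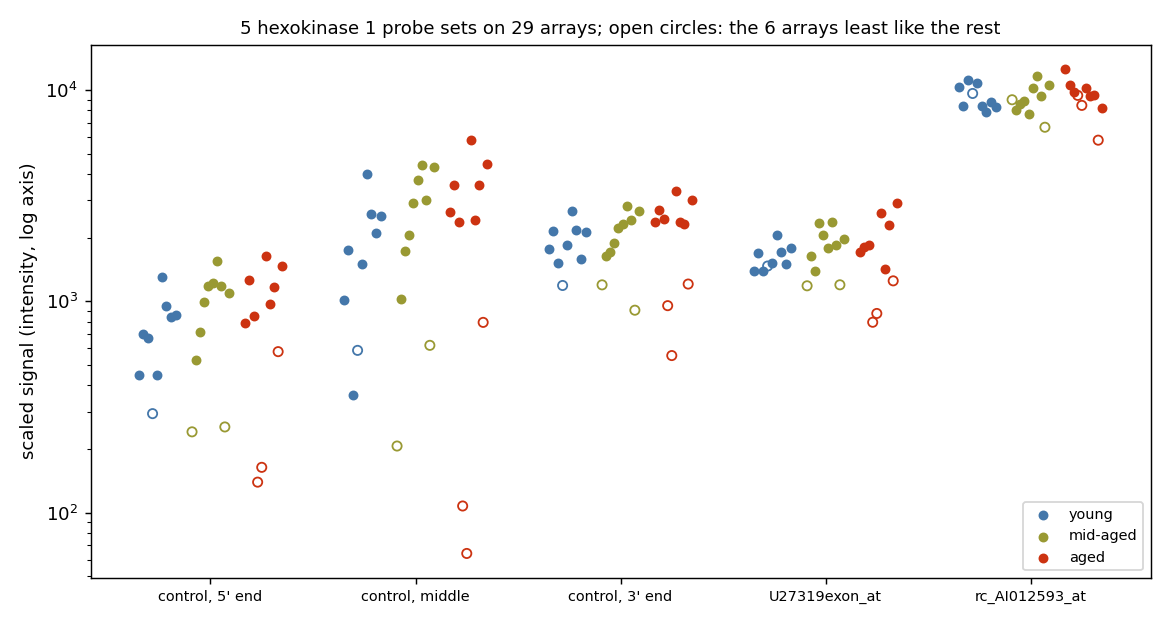
Scaled signal (log axis) of 5 probe sets of Hk1 on each of the 29 arrays, for young, mid-aged and aged arrays from left to right within each probe set; open circles are the 6 arrays least like the rest. The middle control spans 64.1 to 5784, its values called present start at 1756 and its lowest values are open circles, while rc_AI012593_at stays between 5784 and 12575.

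Hk2, the form typical of muscle, had medians of 1064 in young, 933 in mid-aged and 1139 in aged rats with M68971_at (log2 change for aged against young 0.0038, limma, adjusted p = 0.993).

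Phosphofructokinase commits glucose to glycolysis, and its 3 subunit genes were all measured. The muscle-type subunit gene Pfkm had, with U25651_at, lowest, median and highest signals of 12068, 13427 and 14853 in young, 8042, 11886 and 16120 in mid-aged and 10797, 11271 and 15818 in aged rats. Both older groups reached below the young arrays, and their values above the young range lay on the 6 arrays least like the rest. Without those 6 the highest signals were 14853 in young, 13315 in mid-aged and 13145 in aged rats, and the change for aged against young was -0.25. Over all arrays it was -0.16 for aged against young and -0.20 for mid-aged against young (limma, adjusted p = 0.509 and 0.474). The second Pfkm probe set, D21869_s_at, had the widest scatter of the 43, with a residual SD of 0.602 on the log2 scale, and a change of -0.25 for aged against young (limma, adjusted p = 0.713). Its young arrays averaged 10.40 (n = 4) in the longer and 11.29 (n = 5) in the shorter name style on the log2 scale, and within the longer style the change for aged against young was 0.25, of the opposite sign.

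The liver-type subunit gene Pfkl had lowest, median and highest signals of 2522, 3084 and 4002 in young, 1980, 2856 and 4517 in mid-aged and 1840, 2694 and 3672 in aged rats. The medians were lower at each later age within groups that overlapped, and the aged against young change was -0.21 (limma, adjusted p = 0.465). The platelet-type subunit gene Pfkp gave opposite signs with its 2 probe sets. L25387_g_at had signals of 8257, 10427 and 11113 in young, 6805, 9839 and 11316 in mid-aged and 6195, 9188 and 11077 in aged rats (lowest, median, highest), a change of -0.16 for aged against young (limma, adjusted p = 0.445). L25387_at had 1153, 1715 and 2473 in young, 1517, 2226 and 2650 in mid-aged and 1145, 1710 and 2813 in aged rats, a change of 0.16 (limma, adjusted p = 0.711). The brightest probe sets of the 3 subunits were all lower in mean on aged than on young arrays, none past the threshold.

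Aldoa, an aldolase that splits the 6-carbon sugar, had medians of 18028 in young, 14831 in mid-aged and 17130 in aged rats (log2 change for aged against young -0.14, limma, adjusted p = 0.768). The sign turned with the name style: within the longer style the change was 0.07 for aged against young and 0.18 for mid-aged against young, and within the shorter style it was -0.53 for mid-aged against young. Over the 6 genes of the upper steps of glycolysis, from hexokinase to aldolase, 2 changes for aged against young were above zero and 4 below, with a median of -0.15. For mid-aged against young 0 were above and 6 below, with a median of -0.10, but the sign turned under at least 1 other setting for 4 of the 6 (Hk1, Hk2, Pfkp and Aldoa). Averaged over the 6 genes on each array and set against the young mean, the young arrays ran from -0.11 to 0.11 on the log2 scale, the mid-aged from -0.26 to 0.060 and the aged from -0.42 to 0.041, and the 3 groups overlapped. The 3 lowest aged arrays (aged 8, 3 and 4) and the lowest mid-aged array (mid-aged 8) are among the 6 arrays least like the rest. Without those 6 the means were 0.014 for 8 young, -0.095 for 8 mid-aged and -0.039 for 7 aged arrays, and the aged arrays ran from -0.099 to 0.041.

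**Figure D4:**
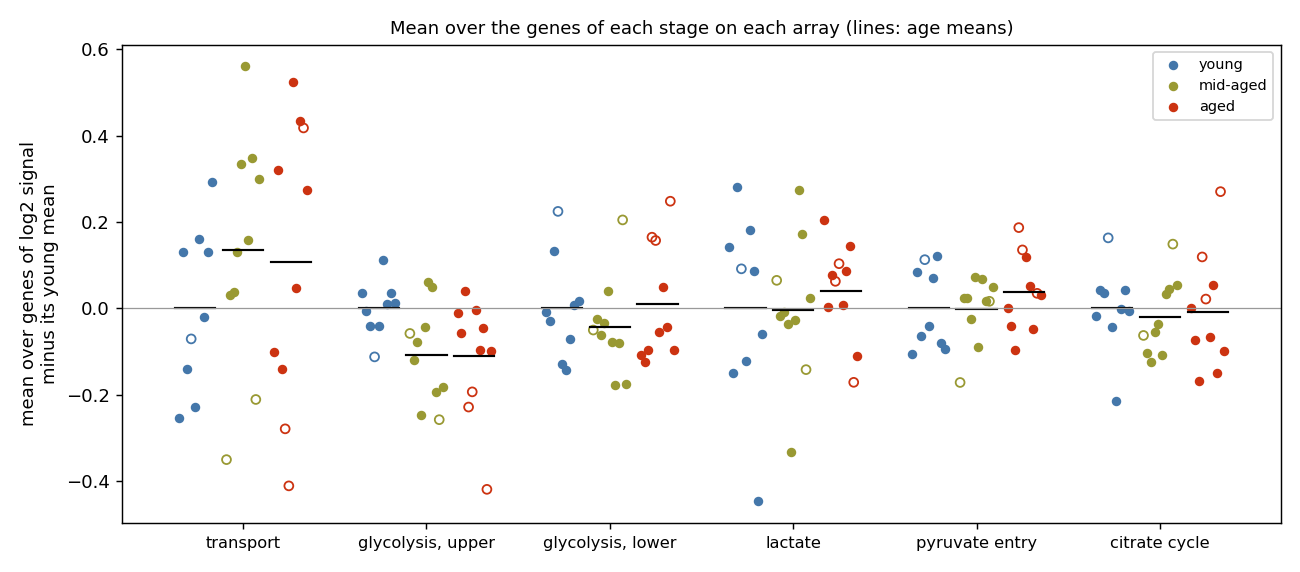
Mean over the genes of each stage of log2 signal minus its young mean, 1 point for each array, with young, mid-aged and aged from left to right and lines at the age means. The stages hold 2, 6, 4, 1, 6 and 7 genes from left to right, and open circles are the 6 arrays least like the rest. The citrate cycle stage includes Aco1, Idh1 and Mdh1, which encode cytosolic enzymes. In upper glycolysis the age means are -0.11 for both older groups with overlapping arrays, and the 3 lowest aged points are open; over the filled points the means are -0.095 for mid-aged and -0.039 for aged arrays.

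The lower steps of glycolysis yield ATP and pyruvate. Pgk1, phosphoglycerate kinase, had medians of 14390 in young, 15796 in mid-aged and 15013 in aged rats with rc_AA892797_at, and its aged against young changes were 0.06 and 0.01 with the 2 tested probe sets. Pgam1, phosphoglycerate mutase, had 3 probe sets with changes from -0.11 to 0.11. Pkm, pyruvate kinase of muscle and brain, had lowest, median and highest signals of 23571, 27158 and 36535 in young, 22537, 25939 and 31909 in mid-aged and 25090, 27470 and 34179 in aged rats. Its lowest mean was that of the mid-aged arrays, and aged arrays were higher than mid-aged ones by 0.17 on the log2 scale (limma, unadjusted p = 0.0470, adjusted p = 0.924), with overlapping groups. Aged against young the Pkm change was 0.05. Which Pkm forms its single probe set reads was not tested.

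Eno1, the enolase found in most cells, makes phosphoenolpyruvate. With X02610_at its lowest, median and highest signals were 14154, 18269 and 21452 in young, 14782, 16294 and 18916 in mid-aged and 15364, 17426 and 20263 in aged rats. Every mid-aged and aged array lay inside the young range. The mid-aged mean was lower than the young mean by 0.17 on the log2 scale (log2 change -0.17, limma, unadjusted p = 0.0347, adjusted p = 0.404), and the aged against young change was -0.08. The brighter Eno1 probe set, X02610_g_at, differed by -0.05 and -0.06 in those 2 comparisons. For Pgk1, Pgam1, Eno1 and Pkm, cross-hybridisation with closely similar gene copies was not tested.

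Lactate dehydrogenase is represented by Ldhb, its heart-type subunit. Ldhb had medians of 19623 in young, 18323 in mid-aged and 19417 in aged rats with U07181_at, and changes for aged against young of 0.04 and 0.13 with its 2 probe sets (limma, adjusted p = 0.871 and 0.604).

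Pyruvate enters the mitochondrion and meets the pyruvate dehydrogenase complex. Its 3 measured subunit genes, Pdha1 and Pdhb of the first component and Dlat of the second, had 7 probe sets with aged against young changes between -0.07 and 0.12, and the lowest adjusted p among them was 0.818 (limma). With the brightest probe sets, Pdha1 had medians of 10456 in young, 10044 in mid-aged and 9444 in aged rats. Pdhb had medians of 2660 in young, 2768 in mid-aged and 2649 in aged rats, and Dlat 6249 in young, 6227 in mid-aged and 6176 in aged rats. Pc, pyruvate carboxylase, which refills the cycle and in brain works mainly in astrocytes, gave -0.05 with U32314_at and 0.21 with U32314_g_at (limma, adjusted p = 0.889 and 0.539). Within the longer name style the change with U32314_g_at was 0.56, and its lowest adjusted p under any setting was 0.0541 (limma, with the name style as a term). With the deposited table of the series U32314_at gave 0.27, its highest value under any setting, and U32314_g_at gave 0.08, its lowest. The lowest value of U32314_at was -0.13, with array weights.

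Both tested genes of the kinases that turn the complex off had higher means on aged than on young arrays, with no probe set past the adjusted threshold. Another such kinase gene, Pdk4, was not called present on enough arrays to be tested. For Pdk2 with U10357_at, the lowest, median and highest signals were 2259, 2609 and 4125 in young, 2064, 3595 and 4481 in mid-aged and 2300, 4012 and 4592 in aged rats. The aged values fell into a group of 7 arrays between 3893 and 4592 and the 3 arrays aged 3, 4 and 8, between 2300 and 3017, and 7 of 9 young arrays lay below the group of 7. The aged mean was 11.82 ± 0.38 (SD, n = 10) against 11.47 ± 0.35 (SD, n = 9) in young rats, a fold of 1.27 with a 95% interval from 1.02 to 1.58 (limma, unadjusted p = 0.0331, adjusted p = 0.301). With U10357_g_at the signals were 3138, 3996 and 4491 in young, 3314, 4321 and 5220 in mid-aged and 2911, 4898 and 5750 in aged rats. With this probe set the 10 aged arrays spread beyond the young range on both sides, with a change of 0.22 (limma, unadjusted p = 0.0499, adjusted p = 0.351).

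The 3 low aged arrays of Pdk2 with U10357_at are among the 6 arrays least like the rest. Without those 6 arrays the change with U10357_at was 0.53 and passed the threshold (limma, adjusted p = 0.0199), as did 3.39% of all tested probe sets. The 7 aged arrays kept then ran from 3893 to 4592 and the 8 young arrays from 2259 to 4125, so the groups still overlapped. Within the longer name style, 10 aged arrays averaged 11.82 and 4 young arrays 11.59 on the log2 scale. Within the shorter style, which holds no aged array, 4 mid-aged arrays averaged 11.80 and 5 young arrays 11.37. With U10357_g_at the 3 aged arrays among the 6 ran from 2911 to 5193 and the 7 others from 3962 to 5750. That probe set did not pass without the 6 arrays.

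Pdk1 encodes a second kinase of the complex, and its only probe set, L22294_at, was present on all 29 arrays. Its lowest, median and highest signals were 460, 623 and 781 in young, 563, 723 and 773 in mid-aged and 590, 725 and 823 in aged rats. The low young values had no counterpart on older arrays, while the upper ends were alike. The aged mean was 9.48 ± 0.16 (SD, n = 10) against 9.28 ± 0.27 (SD, n = 9) in young rats, a log2 change of 0.20 (limma, unadjusted p = 0.0462, adjusted p = 0.338). Within the longer name style, aged arrays averaged 9.48 (n = 10) and young arrays 9.14 (n = 4).

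**Figure D5:**
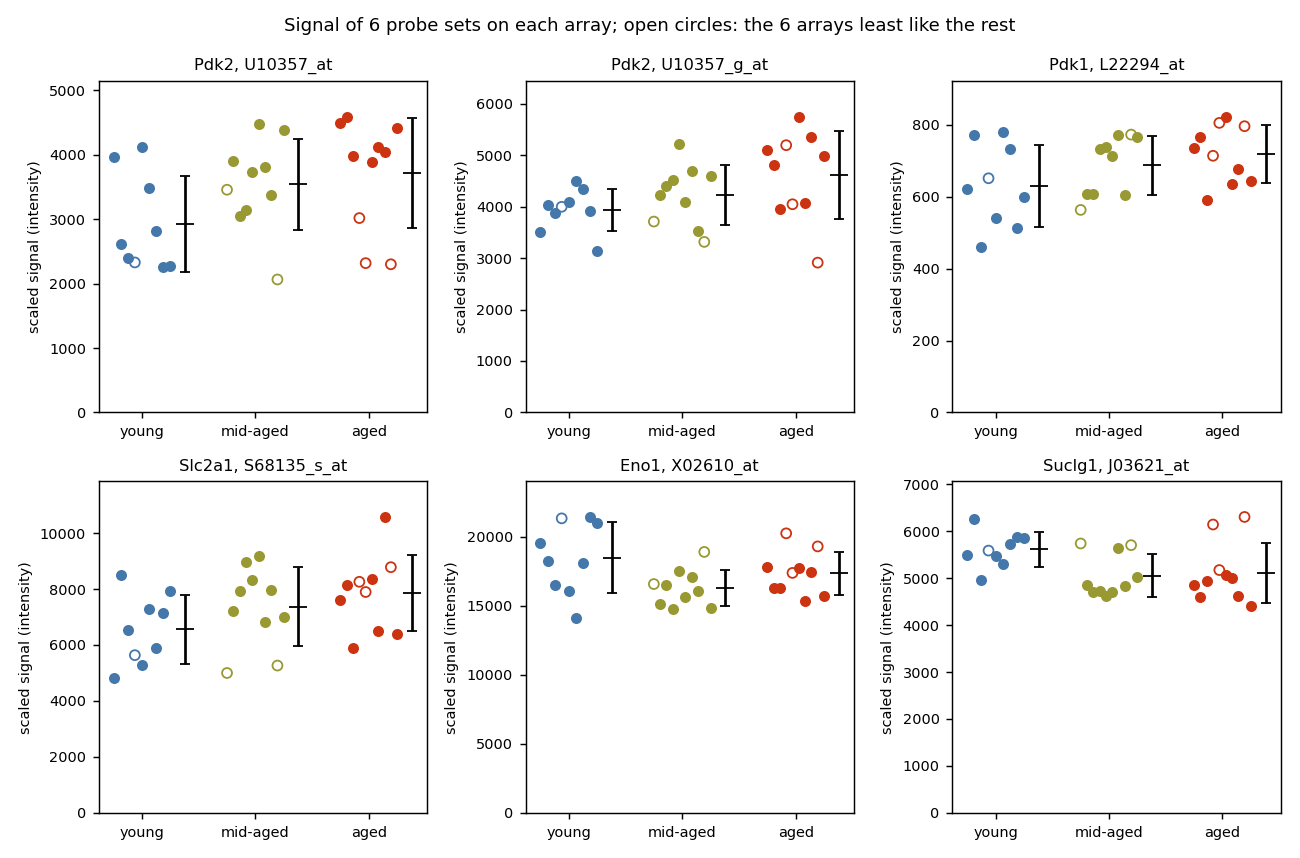
Scaled signal of 6 probe sets on each array, with young, mid-aged and aged from left to right, the mean and SD of each age as black bars, and the 6 arrays least like the rest as open circles. In the Pdk2 panel for U10357_at the 7 filled aged points lie between 3893 and 4592 and the 3 open ones between 2300 and 3017.

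The upstream sequences of Pdk1, Pdk2 and Slc2a1 are shown because these genes had the probe sets that were higher on aged arrays at an unadjusted p. They are the 250 bases before the annotated start, on the gene's strand, from RefSeq's GRCr8 assembly. Capitals mark ACGTG or GCGTG on either strand, so also CACGT or CACGC, the core of the hypoxia response element, and overlapping matches are each counted. The 2 matches of Pdk2 overlap within a single stretch of capitals. Hypoxia-inducible factor is known to drive Slc2a1 and Pdk1 in other settings and was not measured here.
Pdk1, chr3:77113264-77113513, plus strand, 2 matches: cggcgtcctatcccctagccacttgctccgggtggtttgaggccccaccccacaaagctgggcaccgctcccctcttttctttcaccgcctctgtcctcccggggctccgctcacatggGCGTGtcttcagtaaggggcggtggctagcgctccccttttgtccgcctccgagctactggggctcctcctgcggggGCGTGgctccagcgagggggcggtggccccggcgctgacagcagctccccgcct
Pdk2, chr10:80483913-80484162, minus strand, 2 matches: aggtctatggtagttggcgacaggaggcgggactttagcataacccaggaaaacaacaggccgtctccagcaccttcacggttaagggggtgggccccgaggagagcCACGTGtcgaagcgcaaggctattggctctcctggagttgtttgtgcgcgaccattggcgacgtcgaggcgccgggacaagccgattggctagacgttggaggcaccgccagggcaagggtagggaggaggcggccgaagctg
Slc2a1, chr5:138002272-138002521, plus strand, 4 matches: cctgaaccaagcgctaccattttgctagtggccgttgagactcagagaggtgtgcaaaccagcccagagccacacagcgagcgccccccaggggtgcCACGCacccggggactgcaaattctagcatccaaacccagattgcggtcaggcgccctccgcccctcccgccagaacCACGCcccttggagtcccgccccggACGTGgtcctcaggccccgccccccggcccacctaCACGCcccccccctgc
Of all 33469 promoters in the table, 36.7% held at least 1 match in these 250 bases, as did 18 of the 27 promoters (66.7%) of the 23 tested member genes found there. Base composition was not matched between the sets, and a match is a stretch of letters, not a measured site.

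The citrate cycle opens with citrate synthase, Cs, whose medians were 1446 in young, 1690 in mid-aged and 1521 in aged rats (log2 change for aged against young -0.0061, limma, adjusted p = 0.990). Aco1, the cytosolic aconitase and iron-regulatory protein, differed by -0.0030 between aged and young rats, Idh1, the cytosolic isocitrate dehydrogenase that makes NADPH, by -0.05, and Idh3g, a regulatory subunit of the mitochondrial NAD-dependent enzyme, by 0.05, and none of these 3 passed (limma, lowest adjusted p 0.896). Mdh1, the cytosolic malate dehydrogenase of the malate-aspartate shuttle, had medians of 24148 in young, 23160 in mid-aged and 23305 in aged rats and a change of -0.02 for aged against young.

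Suclg1, a subunit of succinate-CoA ligase, which makes a nucleotide triphosphate directly in the cycle, was the enzyme with the lowest p in this stage. With J03621_at its lowest, median and highest signals were 4958, 5588 and 6262 in young, 4621, 4849 and 5740 in mid-aged and 4416, 4967 and 6305 in aged rats. Of the older arrays, 6 of 10 mid-aged and 5 of 10 aged lay below the lowest young array, and the rest lay among or just above the young ones. The mid-aged against young change was -0.15 (95% interval from -0.30 to -0.0066, limma, unadjusted p = 0.0411, adjusted p = 0.420), and the aged against young change was -0.14 (limma, unadjusted p = 0.0586, adjusted p = 0.372). The 3 aged arrays with the highest Suclg1 are among the 6 least like the rest, and without those 6 the aged against young change was -0.23 (limma, adjusted p = 0.0490). Within the shorter name style, the 4 mid-aged arrays ran from 12.17 to 12.21 on the log2 scale and the 5 young arrays from 12.38 to 12.61. Within the longer style the 6 mid-aged arrays ran from 12.24 to 12.49 and the 4 young arrays from 12.28 to 12.45. The second Suclg1 probe set, U75393_s_at, differed by -0.09 between mid-aged and young and by -0.05 between aged and young rats.

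Mdh2, the mitochondrial malate dehydrogenase that closes the cycle, gave opposite signs for aged against young with its 2 probe sets. With rc_AI010480_at the lowest, median and highest signals were 7385, 9032 and 9896 in young, 7267, 8145 and 8906 in mid-aged and 7022, 8627 and 9476 in aged rats, a change of -0.07. With the brighter rc_AI010480_g_at they were 10251, 15844 and 20870 in young, 13255, 16865 and 19158 in mid-aged and 15581, 16812 and 20732 in aged rats, a change of 0.11. The groups overlapped with both, and neither passed (limma, adjusted p = 0.713 and 0.680). Of the 15 genes with more than 1 tested probe set, 9 had probe sets that all differed in 1 direction between aged and young arrays, while Mdh2, Pc, Pdha1, Pdhb, Pfkp and Pgam1 did not. The same share over all genes of the array is not given here, so the 9 are not read as agreement between probe sets.

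Probe sets of 5 members were called present on 0 of 29 arrays and were not tested. They were the single probe set of Pgam2, the muscle-type phosphoglycerate mutase, and 1 probe set each of Slc2a3, Hk2, Pgk1 and Idh1. The last 4 genes each had another probe set that was tested.

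Genes of neighbouring pathways were taken from lists chosen with earlier results of these data known, with each gene read by its brightest tested probe set. None of the 26 genes tested passed the adjusted threshold in any comparison (limma). At an unadjusted p under 0.05, 2 of the 26 (7.69%) differed between aged and young, against 14.2% of all tested probe sets, both among the 9 shuttle and anaplerosis genes. Slc25a11, the oxoglutarate carrier of the malate-aspartate shuttle, had a mean of 11.69 in aged and 11.96 in young rats on the log2 scale (change -0.27, limma, unadjusted p = 0.0105, adjusted p = 0.191), and each of the 10 aged arrays was under the middle young value. Got2, the mitochondrial aspartate aminotransferase of the same shuttle, differed by -0.23 (limma, unadjusted p = 0.0173, adjusted p = 0.231). Of the shuttle's other measured genes, Got1 differed by 0.02, the member Mdh1 by -0.02, and the member Mdh2 by 0.11 and -0.07 with its 2 probe sets.

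Among 6 further citrate cycle and pyruvate dehydrogenase genes the smallest p for aged against young was that of Idh2, the mitochondrial NADP-dependent isocitrate dehydrogenase, with a change of 0.15 (limma, unadjusted p = 0.0602, adjusted p = 0.379). Among 3 further glycolytic genes Aldoc, the aldolase of astrocytes, differed by 0.09 and Pfkfb4, which makes an activator of phosphofructokinase, by -0.21 (limma, adjusted p = 0.693 and 0.624). The lactate carrier Slc16a1 differed by 0.20 and the glycogen phosphorylase Pygm by 0.21 (limma, adjusted p = 0.537 and 0.516). Tkt, transketolase of the pentose phosphate pathway, was higher by 0.17 on aged than on mid-aged arrays (limma, unadjusted p = 0.0338, adjusted p = 0.924) and differed by 0.02 between aged and young. Gapdh is read here only through array controls.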

How the data were processed

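The authors deposited, per the file headers, 1 file for each array with an intensity (a signal) and a present, marginal or absent call for 8799 probe sets. A deposited table of the series gives a second intensity for each probe set, on an unlogged scale in the same direction, whose scaling and computation no source used here gives. Its 29 columns each followed their own array best by rank (lowest correlation 0.851), with column medians from 315 to 468, and it served as an alternative. In 1 file, 1 signal column of another sample was not used. Signals without the 59 controls were scaled to a common mean after trimming 2% at each end (factors 0.999 to 1.00), floored at 160.8, the median of absent values, since 5 signals were 0, and put on the log2 scale. The 3861 probe sets present on at least 9 arrays were tested in 1 fit of the 3 ages by lmFit and eBayes of limma 3.58.1, under R 4.3.3 (two-sided, Benjamini-Hochberg, threshold 0.05), with 95% intervals from the moderated test. Where a gene is given by 1 probe set it is the brightest tested one. Apart from that choice, the control ratios and the summed marker signals, signals of different probe sets were not compared. The platform annotation gives 7006 probe sets 1 gene, 308 several and 1426 none. Control ratios used exact permutation tests. Sequences were searched with Python 3.11.15. The steps were tested on simulated data.

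The members and lists were chosen with earlier results of these data known. All members with a tested probe set are named; per-array ranges are given for the 10 genes with the smallest p in any comparison, and Pfkfb4, Idh2, Slc16a1, Slc25a11, Pygm and Tkt stand for the smallest p of their lists, beside Aldoc, fixed by name. Alternatives covered scaling, the deposited table, filter, floor, variance model, covariates, name style, the replicate number as a block and subsets of arrays.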

Additional observations from a re-analysis of the deposited data

Results flagged for a closer look

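Of 129 groups (43 probe sets at 3 ages), 9 held an array whose gap to its nearest neighbour was large for the group's range by Dixon's criterion, and chance alone gives about 1 in 20. All values are log2 signals. On array aged 8, Mdh1 stood at 14.87 (AF093773_s_at) and Pgk1 at 13.37 (M31788_g_at), each the highest aged value. Pfkp was lowest among aged arrays at 12.60 on aged 6 (L25387_g_at). Among mid-aged arrays, Pdk2 was lowest at 11.01 (U10357_at) and Pgam1 highest at 15.03 (S63233_g_at), both on mid-aged 8, and Pgam1 was lowest at 13.13 with rc_AI169417_s_at on mid-aged 6. Among young arrays, Hk2 was lowest at 9.52 on young 3, and Idh3g and Mdh2 (rc_AI010480_g_at) were lowest at 10.86 and 13.32 on young 6. Arrays aged 8 and mid-aged 8 are among the 6 least like the rest.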

How the results depend on the processing

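No member passed for mid-aged against young or for aged against mid-aged under any setting. For aged against young, 3 passed with array weights (Pdk2 with both probe sets, 0.54 and 0.30, adjusted p = 0.0057 and 0.0407, and Suclg1, -0.23, adjusted p = 0.0170; limma), where 326 of all tested probe sets passed (8.44%). With the Gapdh ratio as covariate 1 passed (Pdk2 U10357_at 0.44, limma, adjusted p = 0.0157, 98 of all, 2.54%), and with the name style as a term 1 (Slc2a1, 55 of all). Once the 6 least correlated arrays were left out 2 passed (Pdk2 U10357_at and Suclg1, 131 of all). Over all settings the change for Pdk2 U10357_at ran from 0.17 to 0.54 (adjusted p from 0.0057 to 0.739), for Pdk2 U10357_g_at from 0.18 to 0.32 (0.0407 to 0.572), for Slc2a1 S68135_s_at from 0.19 to 0.49 (0.0293 to 0.496) and for Suclg1 J03621_at from -0.23 to -0.08 (0.0170 to 0.808). The cause of these differences was not tested. With array weights 87 of all passed for mid-aged against young, and without the 6 arrays 63.

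The other counts that moved are these. Within the longer name style, 16 of all passed for aged against young and 0 for mid-aged against young. The deposited table of the series gave 8 for mid-aged against young. For aged against mid-aged, where 2 of all passed, the count was 0 with that table, with no filter, with the Gapdh ratio, without the 6 arrays and with 2 ages only. At an unadjusted p under 0.05, members for aged against young numbered 2 with 2 ages only. For mid-aged against young they numbered 1 with median scaling, 5 with array weights, 4 with the style as a term, 0 within the longer and 4 within the shorter style, and 6 without the 6 arrays. For aged against mid-aged they numbered 0 with quantile normalization, median scaling or the deposited table, and 2 with the style as a term or within the longer style. The sign of 18 of 43 probe sets held in all settings for aged against young, 20 for mid-aged against young and 11 for aged against mid-aged.

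Leaving out each of the 29 arrays in turn gave 52 to 84 probe sets for aged against young, 8 to 22 for mid-aged against young and 0 to 4 for aged against mid-aged, and 0 members passed each time. Members at an unadjusted p under 0.05 numbered 0 to 5, 0 to 4 and 0 to 1. For aged against young the count of 4 fell to 0 without aged 1 or aged 10, to 1 without aged 5 or 7 or young 3, 4, 5, 8 or 9, and to 2 without aged 3 or 9 or young 2 or 10. For mid-aged against young it was 0 without mid-aged 3, 9 or 10 or young 4 or 8, 1 without mid-aged 4, 5 or 7 or young 7 or 9, and 4 without mid-aged 1 or 8 or young 5. The single Pkm result was lost without aged 2, 3 or 4, mid-aged 1, 2, 3, 5, 6, 9 or 10 or young 7, 8 or 9. Of all probe sets for mid-aged against young, 8 to 10 passed without mid-aged 4 or 7 or young 7, 8 or 9, and for aged against mid-aged the 2 calls became 0, 1 or 4 without aged 2, 3, 4 or 9 or mid-aged 2, 3, 4, 5, 6 or 10.

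With the replicate number as a block 77, 13 and 2 of all tested probe sets passed in the 3 comparisons, 0 members passed, and members at an unadjusted p under 0.05 for aged against young numbered 2. Of 28 same-numbered pairs 13 correlated above 0.1 (median 0.0892, lowest -0.205, highest 0.58), and 3 of 29 arrays correlated best with their own number. No such summary was made for differently numbered pairs, so these values do not settle whether the numbers pair the samples. The main fit did not treat them as paired. The number of arrays limits the precision, and the floor bears only on probe sets near background.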
